A study of Mus musculus with 4 samples.

Results

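The genes described here encode 4 groups of proteins that carry out or steer pre-mRNA splicing: the SR proteins (Srsf genes), the hnRNP proteins (Hnrnp genes), the subunits of splicing factors SF3a and SF3b (Sf3a and Sf3b genes, called SF3 genes below) and the proteins of the small nuclear ribonucleoproteins (snRNPs, Snrp genes). Members were all rows of the deposited gene tables that GENCODE annotates as protein-coding and whose symbol begins with one of these names. The rule found 52 genes, 11 SR, 9 SF3, 12 snRNP and 20 hnRNP genes, among 21764 protein-coding genes and 50600 rows in all. A further 5 rows matched by name but are processed pseudogenes and were left out. All libraries came from mouse regulatory T cells of strain C57BL/6NJ, labelled as primary cells; these CD4+ cells hold other immune cells in check. There was 1 group of 4 libraries, numbered as biological replicates 1 to 4, with no treated, mutant or control arm. One donor identifier is shared by all 4, and neither age nor sex is recorded. The labels link a CD4+ T cell differentiation protocol, and the assay is named total RNA-seq although the linked library protocol is for polyA+ RNA. Output names in the headers include "activated" and "24h". Whether the libraries came from separate animals or cultures is not stated, so every p-value measures only the spread between these 4 libraries.

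Splicing removes introns from pre-mRNA in a complex built anew on each intron from small nuclear RNAs and proteins. U1 and U2 snRNPs mark the 5′ splice site and the branch point, a ring of Sm proteins holds each of these small RNAs, and SF3a and SF3b are the parts of U2 snRNP that grip the branch point. SR proteins bind exons and recruit this machinery, while hnRNP proteins coat nascent RNA and often oppose exon inclusion. In T cells, activation changes the splicing of many transcripts, and Hnrnpll is known for its part in the switch between isoforms of the phosphatase CD45.

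Library totals ran between 38590127 and 93035969 fragments assigned to genes, with replicate 4 the deepest. Replicate 1 stood apart: Gm42418, a gene row that overlaps ribosomal RNA sequence, took 2.04% of its fragments, against 0.0704 to 0.175% in the other libraries, and protein-coding genes held 88.2% of its TPM, against 95.6 to 96.6%. TPM is the count divided by gene length and scaled to a fixed total, so that levels can be compared between genes. The regulatory T cell markers Foxp3, Il2ra and Ctla4 averaged 109 ± 14.5, 702 ± 44.1 and 245 ± 26.5 TPM (SD, n = 4). Of the markers of other cells, Cd8a, Cd79a, Epcam and Csf1r averaged 0.0580 to 1.33 TPM, and Ncr1, Lyz2, S100a8 and Hba-a1 had no fragment in any library. Their part in the levels below was not tested, and in bulk RNA more cells of a kind cannot be told apart from more RNA per cell.

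Nearly all splicing genes were expressed, and most at levels that few other genes reached. Of the 52 genes, 50 (96.2%) had a mean of at least 1 TPM, against 47.7% of all protein-coding genes. The same 50 were at or above 10 TPM. A mean of at least 100 TPM was reached by 39 genes, which is 75% of the 52 and 78% of the 50. It was reached by 2053 protein-coding genes, which is 9.43% of all and 19.8% of those at 1 TPM or more. The median level was 227 TPM over the 52 genes and 231 TPM over the 50, against 31.0 TPM over expressed protein-coding genes. These are descriptions with no test, since the gene list was drawn up with results of these data known. Without replicate 1 the median was 229 TPM and 41 genes reached 100 TPM.

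The 52 genes together held 1.59% of TPM in replicate 1 and 1.76% in each of replicates 2, 3 and 4. Replicate 1 was the lowest, and the other libraries were equal to 3 digits. Taken over protein-coding genes alone, the shares were 1.80, 1.85, 1.82 and 1.83% in replicates 1 to 4, so the gap was smaller on that scale. The hnRNP genes held the largest part, 0.919 ± 0.0539% of TPM (SD, n = 4), ahead of SR genes with 0.313 ± 0.0153%, snRNP genes with 0.283 ± 0.0125% and SF3 genes with 0.203 ± 0.00899%. By share of fragments, which is not divided by length, hnRNP genes held 1.21 ± 0.0364% and SR genes 0.365 ± 0.00891%, but SF3 genes, with 0.293 ± 0.00595%, came before snRNP genes, with 0.162 ± 0.00252%. The 3 highest genes, Hnrnpa1, Hnrnpab and Snrpb, made up 26.6% of the TPM of all 52.

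**Figure D1:**
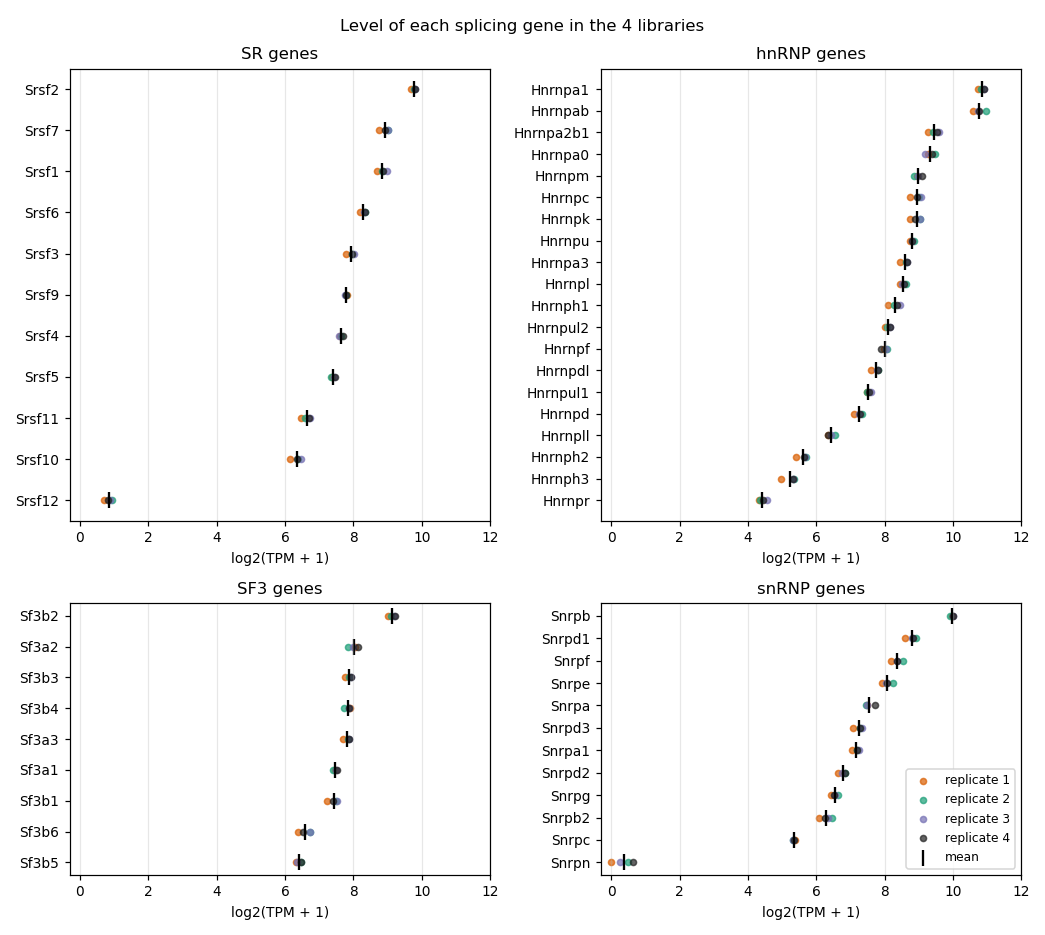
Level of each of the 52 splicing genes in each library, as log2(TPM + 1), in 4 panels by class, with genes ordered by mean and a vertical mark at the mean of 4 libraries. All genes sit above 10 TPM apart from Srsf12 and Snrpn, and the 4 points of most genes nearly coincide.

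With the joined exons of all transcripts as gene length, the 4 highest snRNP genes all encode proteins of the Sm ring. Snrpb, which encodes SmB, had 996, 959, 1019 and 1014 TPM in replicates 1 to 4. Its 4 values lay closer together than those of any other snRNP gene but Snrpc, and it ranked 101st among protein-coding genes. Snrpd1 (SmD1) had 389, 485, 444 and 450.4 TPM in the same order, and Snrpf (SmF) 288, 368, 331 and 330.5 TPM. In both, replicate 1 was lowest and replicate 2 highest, and the 2 genes did not overlap. The other ring subunits followed in order, Snrpe (SmE) with 269 ± 24.4 TPM, Snrpd3 (SmD3) with 151 ± 11.3, Snrpd2 (SmD2) with 108 ± 6.81 and Snrpg (SmG) with 91.8 ± 5.82 TPM (SD, n = 4).

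Outside the ring no snRNP gene averaged more than 186 TPM by joined exon length. Snrpa, which encodes the U1 protein A, had 179, 176 and 179 TPM in replicates 1 to 3 and 209 TPM in replicate 4, the highest. Snrpa1 and Snrpb2, the A′ and B″ proteins of U2 snRNP, averaged 143 ± 9.16 and 77.4 ± 8.51 TPM. Snrpc, the U1 protein C, had 40.3, 39.1, 39.1 and 40.0 TPM, a spread of 1.58% of its mean, the second narrowest among the 52. Its level depended on the length used. The exons of all its transcripts span 6217 bases together, against 933 bases for a typical coding transcript. With the shorter length its mean was 166 TPM. By such coding transcript lengths Snrpa and Snrpa1 averaged 259 and 229 TPM, above the ring gene Snrpf with 207 TPM. Snrpn, which encodes SmN, the counterpart of SmB made mainly in brain and subject to imprinting, was at the edge of detection. It had 0, 12, 6 and 34 fragments in replicates 1 to 4, or 0, 0.419, 0.198 and 0.571 TPM. The 0 of 38590127 fragments in replicate 1 allows up to 0.115 TPM, or 3 fragments, for counting error only. Exons of Snurf and Gm38393, on the same strand, cover at most 37.3% of its exon bases, a sum in which a base under both counts for each. Fragments that overlap 2 genes were not counted.

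Of the SF3 genes, Sf3b2 was highest and Sf3b5 lowest. Sf3b2, a large subunit of SF3b, had 517, 546, 583 and 592 TPM in replicates 1 to 4. Sf3a2, a zinc finger subunit of SF3a, had 264, 229, 255 and 283 TPM. Sf3b3, the scaffold of SF3b, had 213, 235, 243 and 241 TPM, so that its range overlapped that of Sf3a2. The low library was replicate 1 for Sf3b2 and Sf3b3, and replicate 2 for Sf3a2.

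Sf3b4, Sf3a3, Sf3a1 and Sf3b1 followed at 229.9 ± 12.3, 224 ± 13.6, 177 ± 5.84 and 170.4 ± 15.0 TPM (SD, n = 4). Sf3b1 encodes the subunit that clasps the branch point, and it is the SF3b gene most often mutated in human blood cancers. Sf3b6, whose small protein contacts the branch point adenosine, averaged 95.9 ± 11.5 TPM and had the widest spread of the 50 expressed genes, 12% of its mean. Sf3b5 had 78.9, 87.5, 81.2 and 87.3 TPM, with replicates 1 and 3 below replicates 2 and 4.

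Subunits that meet in 1 complex were not at equal transcript levels. Across the 7 Sm ring genes the highest mean TPM, that of Snrpb, was 10.9 times the lowest, that of Snrpg, and 9.69 to 11.7 times within single libraries. The ratio was 12.4 with coding transcript length. Within SF3b, of which 6 subunits carry an Sf3b name, Sf3b2 exceeded Sf3b5 by 6.68 times. With coding transcript length Sf3b3 and Sf3b2 were level, at 353.3 ± 15.3 and 352.5 ± 17.4 TPM, and the ratio of Sf3b3 to Sf3b5 was 6.71. The 3 SF3a genes were closest, with Sf3a2 at 1.46 times Sf3a1, or 2.07 times with coding transcript length. A ratio of highest to lowest cannot fall as genes are added, so complexes of 3, 6 and 7 genes are not compared on equal terms. Phf5a, which encodes the small SF3b subunit that carries no Sf3b name, averaged 464 ± 32.4 TPM.

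**Figure D2:**
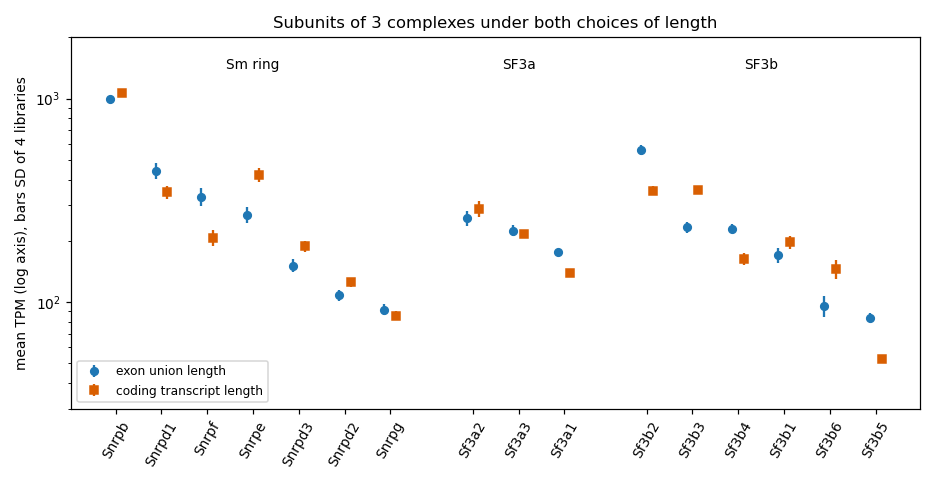
Mean TPM on a log axis of the subunits of the Sm ring, SF3a and SF3b, with bars for the SD of 4 libraries; circles use the union of exons as gene length and squares the median coding transcript. Snrpb stands 10.9 times above Snrpg by union length and 12.4 times by coding transcript length, while the 3 SF3a genes lie within 1.46 and 2.07 times of each other.

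Of the 11 SR genes, 10 had means between 80.4 and 872 TPM, and Srsf12 lay far below them. Srsf2 (SC35), which binds exonic enhancers and also acts in transcription, led the class with 824, 881, 885 and 897 TPM in replicates 1 to 4. Srsf7, a shuttling SR protein with a zinc knuckle that also takes part in mRNA export, had 429, 514, 516 and 485 TPM. Srsf1 (SF2/ASF), the founding SR protein, had 408, 455, 501 and 469 TPM, a range that overlapped that of Srsf7. In all 3 genes replicate 1 was lowest. These 3 genes held 57.9% of the TPM of the class.

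Srsf6 followed with 291, 319.8, 319 and 322 TPM in replicates 1 to 4. Replicate 1 was not lowest on every scale: as TPM over protein-coding genes Srsf6 had 330.3, 335, 329.9 and 334, and replicate 3 was lowest. Srsf3, the smallest SR protein, which also acts in mRNA export and polyadenylation, averaged 243 ± 15.7 TPM (SD, n = 4). Srsf9 averaged 219 ± 2.45 TPM, and its coefficient of variation (the SD as a percentage of the mean) of 1.12% was the lowest of the 50 expressed splicing genes. Srsf4 and Srsf5 averaged 196 ± 6.86 and 167 ± 6.26 TPM, and Srsf11 and Srsf10 98.3 ± 8.51 and 80.4 ± 7.39 TPM. Srsf12, a paralogue of Srsf10, was close to absent, with 24, 39, 37 and 66 fragments in replicates 1 to 4, or 0.631, 0.933, 0.837 and 0.761 TPM. Each of its counts was above the 3 fragments that a count of 0 allows.

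The hnRNP class held the most abundant splicing genes. Hnrnpa1, which encodes a shuttling A/B-type protein that represses many exons, had 1683, 1797, 1924 and 1922 TPM in replicates 1 to 4 and ranked 38th among protein-coding genes. Hnrnpab had 1532, 2010.3, 1712 and 1748 TPM and ranked 40th. Their ranges overlapped: Hnrnpab was the higher gene in replicate 2 and Hnrnpa1 in the other libraries. These ranks hold for exon union length. With coding transcript length Hnrnpa1 ranked 87th and Hnrnpab 71st. Hnrnpa2b1, which encodes the A2 and B1 proteins, had 621, 679.8, 764 and 732 TPM, and Hnrnpa0 618, 714, 577 and 666 TPM. The order of the libraries was not the same in these genes, since replicate 3 was highest for Hnrnpa2b1 and lowest for Hnrnpa0.

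Hnrnpm, which encodes a binder of GU-rich RNA and shares 24.9% of its exon bases with March2 on the same strand, had 489.9, 459, 499.9 and 542 TPM in replicates 1 to 4. March2 itself averaged 14 ± 1.14 TPM. Hnrnpc, which binds uridine tracts, Hnrnpk, which binds cytidine-rich RNA, and Hnrnpu, a scaffold protein of the nucleus, averaged 494 ± 44.8, 488 ± 45.3 and 445 ± 15.3 TPM (SD, n = 4). Hnrnpa3, Hnrnpl and Hnrnph1 averaged 388 ± 25.7, 371 ± 18.9 and 315 ± 30.2 TPM. Of the rest, Hnrnpul2, Hnrnpf, Hnrnpdl, Hnrnpul1 and Hnrnpd averaged between 275 and 150.1 TPM. Hnrnpl and Hnrnpll both bind CA-rich RNA and the regulated exons of Ptprc, the gene for CD45. Hnrnpll averaged 84.8 ± 5.65 TPM against 371 TPM for Hnrnpl, with no overlap between the libraries. With coding transcript length the means were 203 TPM for Hnrnpll and 648 TPM for Hnrnpl.

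The 3 lowest hnRNP genes were Hnrnph2 with 47.9 ± 4.25 TPM, Hnrnph3 with 36.9 ± 4.39 TPM and Hnrnpr with 20.4 ± 1.57 TPM. Hnrnpr had 19.0, 19.4, 22.4 and 20.7 TPM in replicates 1 to 4. Its exons span 22199 bases when all transcripts are joined, against 2665 bases for its typical coding transcript, and with the shorter length its mean was 107 TPM. Hnrnpa2b1 shifted in the same way, to 1756 TPM, which put it above Hnrnpab with 1519.5 TPM and Hnrnpa1 with 1271 TPM. By this length 8 of the 20 hnRNP genes were over 1.5 times higher, among them Hnrnpd with 378 TPM and Hnrnpa3 with 795 TPM. Hnrnpa0 was lower, with 405 TPM, though its length was 2678 bases by both measures. Over all 52 genes, 15 were higher and 4, Hnrnpa0, Sf3b2, Sf3b5 and Snrpf, lower by that margin. The lengths of these 4 were the same or nearly so by both measures. Their lower values came from scaling to a fixed total when the lengths of other genes shrank. The rank of Hnrnpr as lowest of the class, and that of Hnrnpa1 as highest, thus held for exon union length only.

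On the log2(TPM + 1) scale, class means differed in the same direction in all 4 libraries. The SR mean was 7.31 ± 0.07, the SF3 mean 7.62 ± 0.06, the snRNP mean 6.87 ± 0.09 and the hnRNP mean 8.09 ± 0.08 (SD, n = 4). The difference from hnRNP genes, taken within each library, was -0.78 ± 0.02 for SR genes, -0.47 ± 0.04 for SF3 genes and -1.22 ± 0.03 for snRNP genes. A single gene moved the SR value: without Srsf12 it was -0.13 ± 0.02, so that SR genes came above SF3 genes and not below them. Leaving out Snrpn likewise gave -0.63 ± 0.02 for snRNP genes. The SF3 value was -0.93 ± 0.04 with coding transcript length. The class medians of mean TPM were 219 for SR, 224 for SF3, 147 for snRNP and 343 for hnRNP genes.

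The RefSeq table of promoters held 46 of the 52 genes, and 16469 protein-coding genes in all. The promoters of the most abundant gene of each class that it holds, by exon union length, are shown as the stretches in which motifs were sought. Each runs 5′ to 3′ on the strand of the gene, with matches in capitals, over the 250 bases before the RefSeq start site in build GRCm38.p6, cut to 202 bases in Snrpf so as to end before the gene in the deposited table. Srsf2 lies on the minus strand at chr11:116853095-116853344, Sf3b2 on the minus strand at chr19:5295456-5295705, Snrpf on the minus strand at chr10:93589707-93589908 and Hnrnpa1 on the plus strand at chr15:103240147-103240396.
Srsf2: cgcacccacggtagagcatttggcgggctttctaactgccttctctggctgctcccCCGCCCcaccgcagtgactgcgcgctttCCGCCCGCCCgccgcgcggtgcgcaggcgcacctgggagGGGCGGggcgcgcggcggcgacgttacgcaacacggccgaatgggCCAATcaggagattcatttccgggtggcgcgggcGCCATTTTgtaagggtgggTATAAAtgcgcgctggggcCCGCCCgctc
Sf3b2: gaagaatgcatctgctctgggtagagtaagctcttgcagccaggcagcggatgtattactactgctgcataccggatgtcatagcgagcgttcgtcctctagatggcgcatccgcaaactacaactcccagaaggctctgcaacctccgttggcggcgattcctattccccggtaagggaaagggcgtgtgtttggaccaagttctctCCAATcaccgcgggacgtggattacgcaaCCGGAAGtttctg
Snrpf: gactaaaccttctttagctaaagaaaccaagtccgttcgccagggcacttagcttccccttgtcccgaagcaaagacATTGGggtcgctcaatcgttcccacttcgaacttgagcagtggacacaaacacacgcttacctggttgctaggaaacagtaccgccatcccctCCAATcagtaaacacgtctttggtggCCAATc
Hnrnpa1: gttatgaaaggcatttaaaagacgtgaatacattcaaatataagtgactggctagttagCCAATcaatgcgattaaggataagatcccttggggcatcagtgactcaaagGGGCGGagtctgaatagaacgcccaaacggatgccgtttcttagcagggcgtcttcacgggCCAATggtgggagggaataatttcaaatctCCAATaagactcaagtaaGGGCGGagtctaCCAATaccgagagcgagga

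The motifs sought, on both strands, were CCAAT (the CCAAT box), GGGCGG (the GC box), CCGGAAG (the core bound by ETS factors), TATAAA (the TATA box), CACGTG (an E-box) and AANATGGC (a YY1-type motif). The Hnrnpa1 stretch held 4 CCAAT matches and 2 of GGGCGG. The Srsf2 stretch, 69.6% G or C, held 5 matches of GGGCGG, of which a pair shares 2 bases, and 1 match each of the CCAAT box, the TATA box and the YY1-type motif. Sf3b2 had 1 CCGGAAG and 1 CCAAT match, and Snrpf had 3 CCAAT matches. A match is a run of letters and says nothing of binding.

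Across the 46 promoters, CCGGAAG was found in 15, which is 32.6%, against 16.1% of 8301 expressed protein-coding genes and 9.58% of all. GGGCGG stood in 69.6%, against 62.1% of expressed genes, and CCAAT in 43.5%, against 37.5%. Over all 16469 genes these shares were 44.6 and 36.0%. TATAAA was found in 10.9% of the 46, against 5.51% of expressed genes and 11.9% of all. CACGTG was found in 6.52%, against 9.01% of expressed genes and 6.82% of all, and AANATGGC in 4.35%, against 4.75 and 3.69%. The classes were unlike in these counts, a split made after the totals were seen. CCGGAAG was found in 6 of 7 SF3 promoters, 4 of 11 SR, 3 of 10 snRNP and 2 of 18 hnRNP promoters. CCAAT was found in 2 of 7 SF3, 3 of 11 SR, 3 of 10 snRNP and 12 of 18 hnRNP promoters. The 12 include Hnrnpa1, Hnrnpab, Hnrnpa2b1 and Hnrnpa0, which were high in level, and also Hnrnph2 and Hnrnpr, which were low. None of these shares was tested.

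Transcript annotation also set the classes apart. At least 1 transcript marked for nonsense-mediated decay, the pathway that removes mRNA with an early stop codon, was annotated for 24 of the 52 genes (46.2%), against 30.2% of 10383 expressed protein-coding genes and 26.2% of those at 100 TPM or more. By class it was 9 of 11 SR genes (81.8%), 1 of 9 SF3 genes (11.1%), 4 of 12 snRNP genes (33.3%) and 10 of 20 hnRNP genes (50%). The median number of annotated transcripts was 7 in SR, 4 in SF3, 4.5 in snRNP and 8 in hnRNP genes, against 5 in expressed genes. A gene with more transcripts has more chances to hold a decay-marked one, and the shares were not adjusted for that. SR and hnRNP genes are known to limit their own output through decay-marked transcripts. The deposited counts join all transcripts of a gene, so the share of decay-marked transcripts in these cells was not measured. A retained-intron transcript was annotated for 73.1% of the 52 genes and 61.2% of expressed genes. The joined exons were 1.83 times the typical coding transcript in the median splicing gene, against 1.42 times in the median expressed gene. Hnrnpa0 and Sf3b5 each consist of a single exon block.

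In 33 of the 52 genes, part of the transcript sequence also occurs in genes elsewhere. Read pairs that map to several places were left out of the counting. Stretches of 50 bases shared with the transcript of a gene at another place made up at least 10% of the transcript sequence of 14 genes, a smaller part in others, and none in 19. The same count over all protein-coding genes was not made. A shared stretch need not mark a copy of the gene: in Hnrnpr the share was 3.56%, spread over 804 other genes. The share was highest for Sf3b4 with 49.3%, Hnrnpf with 47.4%, Hnrnpa1 with 46.7% over 20 other genes, Srsf3 with 31.5% and Hnrnpa3 with 28.3% over 45 other genes. The levels of these genes are therefore uncertain, and genes that share sequence can take or lose fragments. Among Sm ring genes the share was 21.3% for Snrpf, 18.6% for Snrpg, 11.7% for Snrpd2, 9.11% for Snrpe and 8.25% for Snrpd1. It was 0.09% for Snrpb, and Snrpd3 had none. The part of shared sequence in the ratio of Snrpb to Snrpg was not tested. Of the pseudogenes left out by the rule, Snrpert had 5.63, 16.7, 8.17 and 8.45 TPM in replicates 1 to 4 and shares sequence with Snrpe. The 52 genes lie on 18 chromosomes, with 6 on chromosome 7 and 5 on chromosome 11. A gap of 54638 bases separates Hnrnpd and Hnrnpdl on chromosome 5, and one of 137754 bases separates Hnrnpll and Srsf7 on chromosome 17, in both cases on the minus strand.

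Splicing genes varied little between libraries, close to other genes of like level. Their coefficients of variation of TPM had a median of 6.75% over the 50 expressed genes, between 1.12% for Srsf9 and 12% for Sf3b6, against 7.95% over 10095 protein-coding genes at 1 TPM or more in every library and 7.23% over 7785 other genes of 10 to 2000 TPM. Without replicate 1 it was 4.15%, against 6.34% over the 10095 genes. The highest library exceeded the lowest by less than 1.5 times in all 50 genes, against 92.0% of the 10095. Those 10095 genes reach down to 1 TPM, so contrasts with them are not with genes of like level. The widest gap was 1.31 times, in Hnrnpab, and the narrowest 1.03 times, in Srsf9.

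**Figure D3:**
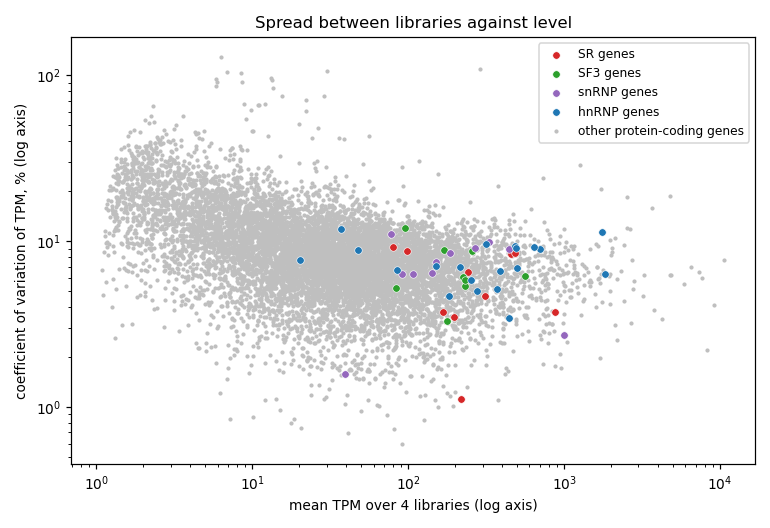
Coefficient of variation of TPM over 4 libraries (%) against mean TPM, both on log axes, for protein-coding genes at 1 TPM or more in every library, with the 50 expressed splicing genes coloured by class. Splicing genes lie between 1.12% and 12%, within the cloud of other genes of like level.

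To ask which genes varied more than genes of like abundance, the dispersion of each was compared with that of the trend in edgeR's quasi-likelihood fit with Benjamini-Hochberg adjustment at 0.05. Of the 51 splicing genes tested, 0 passed, where 0.468% of all 12396 genes tested did. Snrpn did not reach the filter on low counts. At an unadjusted p under 0.05 there were 3 splicing genes, or 5.88%, against 5.33% of all genes tested, and DESeq2 marked 0 of 51 as dispersion outliers, against 0.557% of all. The count of splicing genes was thus near the background by each measure. On simulated counts with 1 library changed, the test recovered 21 of 50 genes changed by 1.5-fold and 42 of 50 changed 2-fold. Small shifts could thus have been missed. The changed genes were drawn from all genes tested and no fold under 1.5 was simulated, so the rate for splicing genes alone is not known.

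The lowest p-values belonged to Hnrnpa0, Hnrnpab and Sf3a2. After scaling by library size (CPM, counts scaled to a common library total, with TMM factors), Hnrnpa0 had 527, 566, 446 and 531 CPM in replicates 1 to 4 (unadjusted p = 0.02515, edgeR adjusted p = 0.8468), with replicate 3 low. Hnrnpab had 1358, 1654, 1375 and 1448 CPM (unadjusted p = 0.02741, edgeR adjusted p = 0.8624), with replicate 2 high. Sf3a2 had 224, 180.1, 196 and 224 CPM (unadjusted p = 0.03118, edgeR adjusted p = 0.8708), with replicates 2 and 3 below replicates 1 and 4. The next were Snrpa and Hnrnpm, both with an edgeR adjusted p of 0.9742. For Snrpa the CPM values were 169, 154, 153 and 185, and for Hnrnpm 734, 639, 678 and 758, with replicate 4 highest in both genes.

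Small shifts between libraries went one way in all 4 classes in replicates 1 and 4 but not in replicates 2 and 3. By TPM, 38 of the 50 expressed genes were lowest in replicate 1 and 1 was lowest in replicate 4, and 3 were highest in replicate 1. The same count over all genes was not made on this scale. Expressed protein-coding genes as a whole also had their lowest median in replicate 1, 29.2 TPM against 31.1 to 32.2 TPM, so the 38 are not particular to splicing genes. With TMM scaling, which put the median deviation of all genes tested between -0.00183 and 0.00325 in each library, 25 of 51 genes (49.0%) were lowest in replicate 1, against 28.4% of all genes tested. In replicate 4, 3 of 51 (5.88%) were lowest, against 19.9%. The median log2 deviation of the 51 genes from their own means was -0.043, 0.0048, -0.018 and 0.027 for replicates 1 to 4. By class, the medians were -0.049 to -0.024 in replicate 1 and 0.013 to 0.041 in replicate 4. In replicate 2 they were 0.042 for snRNP and 0.040 for hnRNP genes but -0.0043 for SR and -0.0085 for SF3 genes, and in replicate 3 they were 0.032 for SR but -0.042 for snRNP genes. The share of Gm42418 fragments was 2.04, 0.175, 0.0704 and 0.0871% in replicates 1 to 4. It stood apart in replicate 1 only, and its part in the shifts was not tested.

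**Figure D4:**
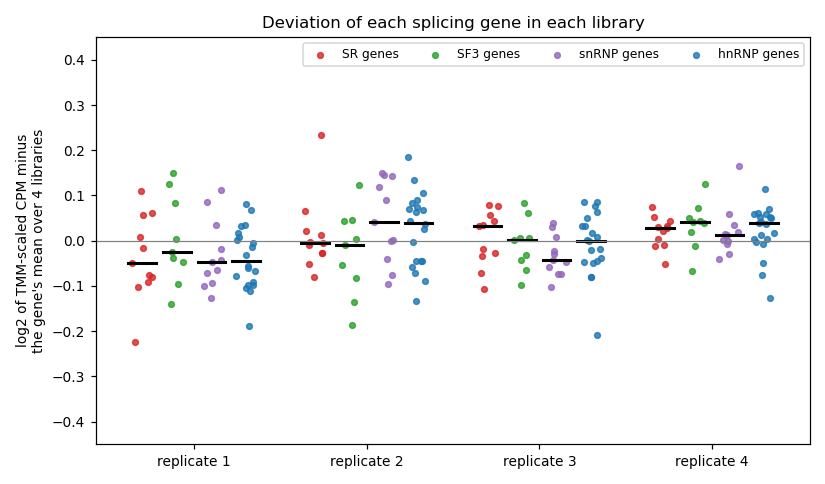
Log2 of TMM-scaled CPM minus the mean of that gene over 4 libraries, for the 51 tested splicing genes in each replicate, coloured by class, with a black line at each class median. In replicate 1 all 4 class medians lie below 0, between -0.05 and -0.02, while the points of each class spread over both sides.

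Other splicing genes, from 9 lists drawn up with results of these data known, were generally lower. Of 121 genes, 111 reached 1 TPM, 49 reached 100 TPM, and the median was 69.6 TPM, against 227 TPM for the 52 genes above. In the same edgeR test with Benjamini-Hochberg adjustment, 0 of 112 passed, and 1 had an unadjusted p under 0.05. That gene, Snrnp35 of the minor spliceosome (unadjusted p = 0.03622, edgeR adjusted p = 0.9072), had 32.5, 26.7, 34.6 and 41.7 TPM in replicates 1 to 4.

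U2AF and other branch point factors, a list that also holds Phf5a, had the highest median, 274 TPM over 12 genes. Without Phf5a it was 232 TPM over 11 genes, below that of the exon junction complex. The helicase gene Ddx39b averaged 536 ± 22.9 TPM and U2af1, which reads the 3′ splice site, 519 ± 33.1 TPM (SD, n = 4). The exon junction complex, deposited on spliced mRNA, had a median of 247 TPM over 6 genes, led by Eif4a3 with 424 ± 7.29 TPM and Rnps1 with 359 ± 16 TPM. U5 and tri-snRNP proteins, a list that also holds the U1 gene Snrnp70, had a median of 137 TPM over 14 genes, led by Prpf8, the core of the catalytic centre, with 493 ± 44.3 TPM and the helicase gene Snrnp200 with 224 ± 14.3 TPM.

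Lists of SR kinases and SR-related proteins, the Prp19 complex and catalytic steps, snRNP assembly and LSM proteins had medians of 80.0, 76.0, 64.4 and 56.3 TPM over 15, 18, 14 and 10 genes. Their leading genes were Srrm2 and Srrm1 (299 and 181 TPM), Prpf19 and Snw1 (205 and 179 TPM), Prmt5 and Clns1a (292 and 127 TPM) and Lsm4 and Lsm2 (398 and 99.6 TPM). Srpk3, a kinase of muscle, had no fragment. The 8 proteins of the minor spliceosome, which removes a rare class of introns, had the second lowest median, 39.1 TPM, led by Snrnp25 with 81.2 ± 2.53 TPM and Zmat5 with 56.4 ± 2.85 TPM.

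Regulators of tissue-specific splicing had the lowest median, 19.9 TPM over 24 genes, and the widest range. Ptbp1, which represses neuronal exons, averaged 843 ± 26.7 TPM, above every SR gene by mean except Srsf2 (SD, n = 4). At the other end, 9 of the 24 were under 1 TPM: Rbfox2 averaged 0.663 ± 0.160 TPM and Esrp2 0.190 ± 0.0587 TPM, Rbfox3, Nova2 and Esrp1 had traces, and Rbfox1, Nova1, Elavl2 and Srrm4 had no fragment. These are mostly regulators of neurons, muscle and epithelium.

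**Figure D5:**
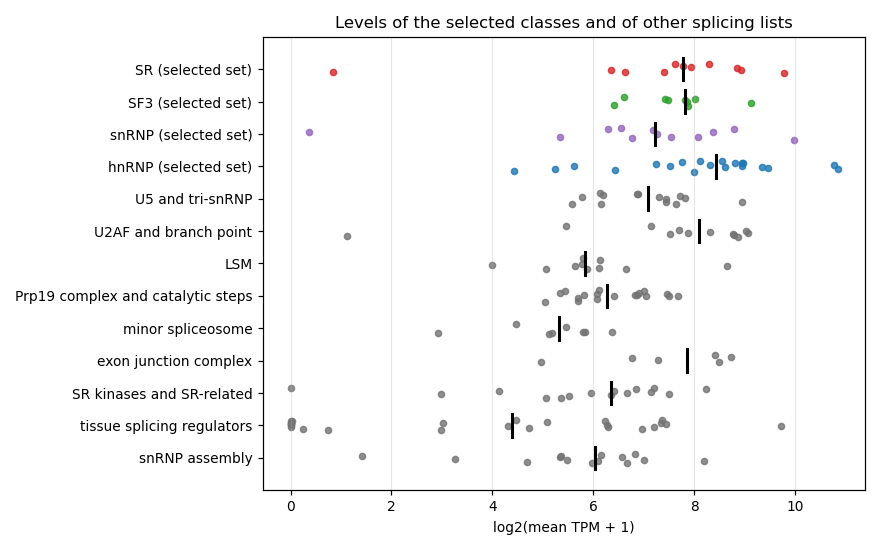
Mean level of each gene as log2(mean TPM + 1), for the 4 classes of the selected set (coloured) and 9 other lists of splicing genes (grey), with a black line at each median. The tissue splicing regulators reach from 0 to 843 TPM, and Srsf12 and Snrpn are the only genes of the selected set below 1 TPM.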

How the data were processed

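Per the file headers, the authors counted read pairs per gene with featureCounts 1.4.6-p4 over exons, using GENCODE mouse release 13 and strand setting 2. The labels name the assembly mm10. The deposited values are raw counts, with the joined exon length of each gene beside them. The aligner's name was not given in the sources used here. Pairs mapping to several places or overlapping 2 genes were not counted, per the command lines in the file headers. Gene names and types came from GENCODE release 21: 50376 of 50600 IDs matched and 224 did not. TPM and CPM were computed from the counts. Members, lists and tests were chosen with earlier results of these data known.

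Variation was tested over all genes by the quasi-likelihood method of edgeR 4.0.16 (R 4.3.3), with filterByExpr, TMM factors, an intercept alone, a robust prior, the upper F tail and Benjamini-Hochberg adjustment at 0.05, and with DESeq2 1.42.0 as an alternative. The test was tried on simulated data for 12252 genes. The common biological coefficient of variation was 10.7%. No 2 libraries were duplicates: chi-square over its degrees of freedom was 12.2 to 137 over the 6 pairs. Coding transcript length is the median over coding transcripts in the GENCODE release 21 basic set. Genes with values in every library were the 3 highest and the lowest of each class, those under 10 TPM and the 5 lowest p-values, and a few more where a library stood apart. Protein sequences, planned at first, were not used here. In the other lists the 2 highest genes and the lowest under 1 TPM are named. Some genes that the rules for lists and markers pick are not reported here. Alternatives changed the scaling, pseudocount, filter or length, or left out 1 library.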

Additional observations from a re-analysis of the deposited data

Results flagged for a closer look

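Of 65 sets of 4 library values examined as TPM, 7 had 1 library further from the rest than Dixon's critical value for 4 values allows. Chance alone marks about 1 in 20 such sets, and the sets share libraries and genes. In 6 of the 7 the library was replicate 1, as the lowest. The splicing genes together held 1.59% of TPM there, against 1.76% in each of the other libraries. The hnRNP genes held 0.839% of TPM in replicate 1, against 0.940 to 0.956%, and their median was 312 TPM, against 350.2 to 355 TPM. Srsf6 had 291 TPM in replicate 1, against 319 to 322 TPM, Hnrnpdl 193 TPM, against 220.3 to 224 TPM, and Hnrnph3 30.3 TPM, against 38.8 to 39.4 TPM. Snrpa was the exception, with 209 TPM in replicate 4 as the highest, against 176 to 179 TPM. Most of these gaps belonged to the TPM scale, a check chosen after seeing the data. As TPM over protein-coding genes, 2 of the 7 passed the same value, Hnrnph3 with 34.4 in replicate 1, against 40.2 to 41.2, and the hnRNP median with 354, against 366 to 367. As TMM-scaled CPM, 0 of the 5 that are levels passed, and replicate 1 was not the lowest for Srsf6 or the hnRNP median.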

How the results depend on the processing

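No class difference from hnRNP genes changed sign under any alternative run, though orders among genes and among the other classes did turn. By coding transcript length Hnrnpa2b1 led hnRNP genes, Sf3b3 drew level with Sf3b2, and Snrpa and Snrpa1 came above Snrpf. By fragments SF3 genes came before snRNP genes, and with genes of at least 1 TPM SR genes came above SF3 genes. Splicing genes passing the variation test numbered 0 under every alternative. The count over all genes, 58, became 110 with no filter on low counts and 37 to 69 without 1 library. FPKM, which is not scaled to a common sum, gave a median of 68.1 and 16 genes at 100 or more. TPM over protein-coding genes gave a median of 241 TPM and a share of 1.82%. The share was 2.03% of fragments. With coding transcript length, chosen after seeing the data, the median was 248 TPM, the share 1.94%, the difference from hnRNP genes -0.90 for SR, -0.93 for SF3 and -1.35 for snRNP genes, and the ratio of highest to lowest 12.4 in the Sm ring and 2.07 in SF3a. With log2(CPM + 1) the differences were -1.18, -0.79 and -2.46. With a pseudocount of 0.1 they were -0.87 for SR and -1.38 for snRNP genes, and with genes of at least 1 TPM in every library -0.13 and -0.63. The median coefficient of variation was 5.08% for TMM-scaled CPM, against 6.81% over protein-coding genes, and 4.15 to 7.49% without 1 library. The mean TPM of 48 of the 52 genes moved by more than 1 SD with coding transcript length, 16 with TPM over protein-coding genes and 0 without any 1 library. No paired analysis was possible because there is 1 group.

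Levels below about 1 TPM, those of Srsf12 and Snrpn, rest on few fragments. Counts join transcripts, so isoforms could not be separated, and nothing here measures protein or splicing itself.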
